A study of Drosophila melanogaster with 6 samples.

Results

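The genes Clk, cyc, vri, Pdp1 and cwo encode the transcription factors of the Clk feedback loop of the fly's circadian clock. Every probe set annotated with exactly 1 gene symbol from these 5 was taken, which gave 6 of the 18952 probe sets on the array. These were 1631948_s_at for Clk, 1640765_at for cyc, 1639273_s_at for vri, 1627436_s_at for Pdp1, and 1623277_at and 1631722_at for cwo, called its first and second probe sets below. The arrays measured head RNA of female Drosophila melanogaster, grown at 25 °C. Flies labelled Tim-Fbl in the RNAi field had 1 array at ZT15 and 1 at ZT3, and flies labelled control had 2 arrays at ZT15 and 2 at ZT3. Zeitgeber time (ZT) counts hours after the lights come on, so that ZT15 lies in the early night and ZT3 in the morning under the usual light schedule of equal day and night. The driver and construct behind the Tim-Fbl label, the genetic background of either strain, the flies' age and the light schedule are not given in the sources used here. Neither Tim-Fbl value has a replicate, and each is assumed to vary like the control arrays wherever the strains are tested.

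The CLK and CYC proteins are bHLH-PAS factors that pair on E-box sequences and switch on per, tim, vri, Pdp1 and cwo. PER and TIM then block CLK and CYC, while VRI, a bZIP repressor, and PDP1, a bZIP activator of the PAR group, act in opposite directions on the Clk gene. CWO, a bHLH-Orange factor, competes at E-boxes and represses the same targets. In fly heads most clock transcript comes from photoreceptors and glia, with a small share from the clock neurons of the brain.

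The label was checked first on fbl, which encodes pantothenate kinase. Its signal was 7.49 and 7.47 log2 units on the Tim-Fbl arrays at ZT15 and ZT3, against 9.11 to 9.28 on the control arrays. Head markers were present, with elav between 9.73 and 10.56, the photoreceptor arrestin gene Arr1 between 13.67 and 13.92 and the glial gene repo between 9.92 and 10.30. The eggshell marker Cp15 and the oocyte marker osk had means of 4.40 and 3.69, near the arrays' lower quartiles of 3.98 to 4.15. The eggshell marker Cp36 had a mean of 4.89, above these quartiles and below every array's median signal. The eggshell marker Vm26Aa had a mean of 6.09, above every array's median signal. Of the other tissues' markers, the flight muscle actin gene Act88F had 8.29 and 7.70 on the Tim-Fbl ZT15 and ZT3 arrays, against 6.54 to 6.86 in controls (log2 difference 1.31, limma adjusted p = 0.00247), and Cp15 was lower in Tim-Fbl (-0.38, limma adjusted p = 0.0316). The 18S rRNA probe sets had medians of 11.76 and 11.47 on the Tim-Fbl ZT15 and ZT3 arrays, against 11.44 on the second control ZT15 array and 12.27 to 12.66 on the remaining controls. The poly-A spike-in median was 6.76 on the Tim-Fbl ZT15 array, against 5.17 to 5.89 on the others. The part of these differences in the results below was not tested.

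The first question was how the loop's transcripts differed between night and morning in control heads. Clk fell at ZT15, vri and Pdp1 rose, and cyc and both probe sets of cwo did not pass the test. Of the 6 probe sets, 2 were higher and 1 lower at an adjusted p under 0.05 in limma. Over all 18769 probe sets tested, 0.314% were higher, 0.389% were lower and 0.703% passed in either direction. The median log2 difference was 0.77 over the 6 and -0.01 over all probe sets. In whole heads, fewer cells that express a gene and less RNA per cell cannot be told apart.

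Clk, the positive factor whose own transcript cycles, had signals of 6.16 and 6.04 log2 units on the control ZT15 arrays, against 7.57 and 7.37 on the control ZT3 arrays. The times did not overlap, and the nearest arrays of the 2 times lay 1.21 log2 units apart. Clk was 2.59-fold lower at ZT15 (log2 difference -1.37 ± 0.108 SE, limma adjusted p = 0.00477, n = 2 and 2). Its partner gene cyc had 8.23 and 8.31 on the control ZT15 arrays, against 8.13 and 8.17 on the control ZT3 arrays. These 4 values lay between 8.13 and 8.31, and the difference of 0.12 ± 0.089 (SE) did not pass (limma adjusted p = 0.52, 95% interval -0.10 to 0.33). The 2 control times did not overlap on any of the 6 probe sets, and 52.2% of all probe sets did not overlap either. At an unadjusted p under 0.05 there were 5 of the 6, against 17.3% of all probe sets.

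The repressor gene vri had 10.86 and 10.97 log2 units on the control ZT15 arrays, against 8.19 and 7.58 on the control ZT3 arrays. Every ZT15 array lay at least 2.67 log2 units above every ZT3 array. The rise was 8.15-fold (log2 difference 3.03 ± 0.189 SE, limma adjusted p = 0.00195), the 4th largest difference in size of all 18769 probe sets. The activator gene Pdp1 had 11.09 and 11.13 on the control ZT15 arrays, against 10.16 and 10.06 on the control ZT3 arrays. It rose 2.00-fold (1.00 ± 0.0907, limma adjusted p = 0.0099). The Pdp1 arrays of each time lay within 0.10 log2 units of each other, so a smaller difference than that of vri still passed. Without control ZT3 replicate 2, Pdp1 kept a difference of 0.95 and did not pass (adjusted p = 0.086), in a fit where 27 probe sets passed in place of 132.

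The repressor gene cwo did not pass for time in controls on either probe set, although each ZT15 array lay above each ZT3 array. The first probe set had 10.44 and 10.19 log2 units on the control ZT15 arrays, against 9.93 and 9.39 on the control ZT3 arrays. The second had 9.02 and 8.51 on the control ZT15 arrays, against 8.35 and 7.42 on the control ZT3 arrays. On both, however, replicates of a time lay as far apart as the times did at their nearest, with replicate 2 the lower at each time. The log2 differences were 0.65 ± 0.184 (SE, limma adjusted p = 0.186) and 0.88 ± 0.299 (limma adjusted p = 0.234). The mean of both probe sets gave 0.77 ± 0.248, in a fit with 1 test for each of 11982 genes (limma adjusted p = 0.202). Without control ZT3 replicate 2 the differences were 0.38 and 0.42, and without control ZT3 replicate 1 they were 0.92 and 1.34, none of which passed.

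**Figure D1:**
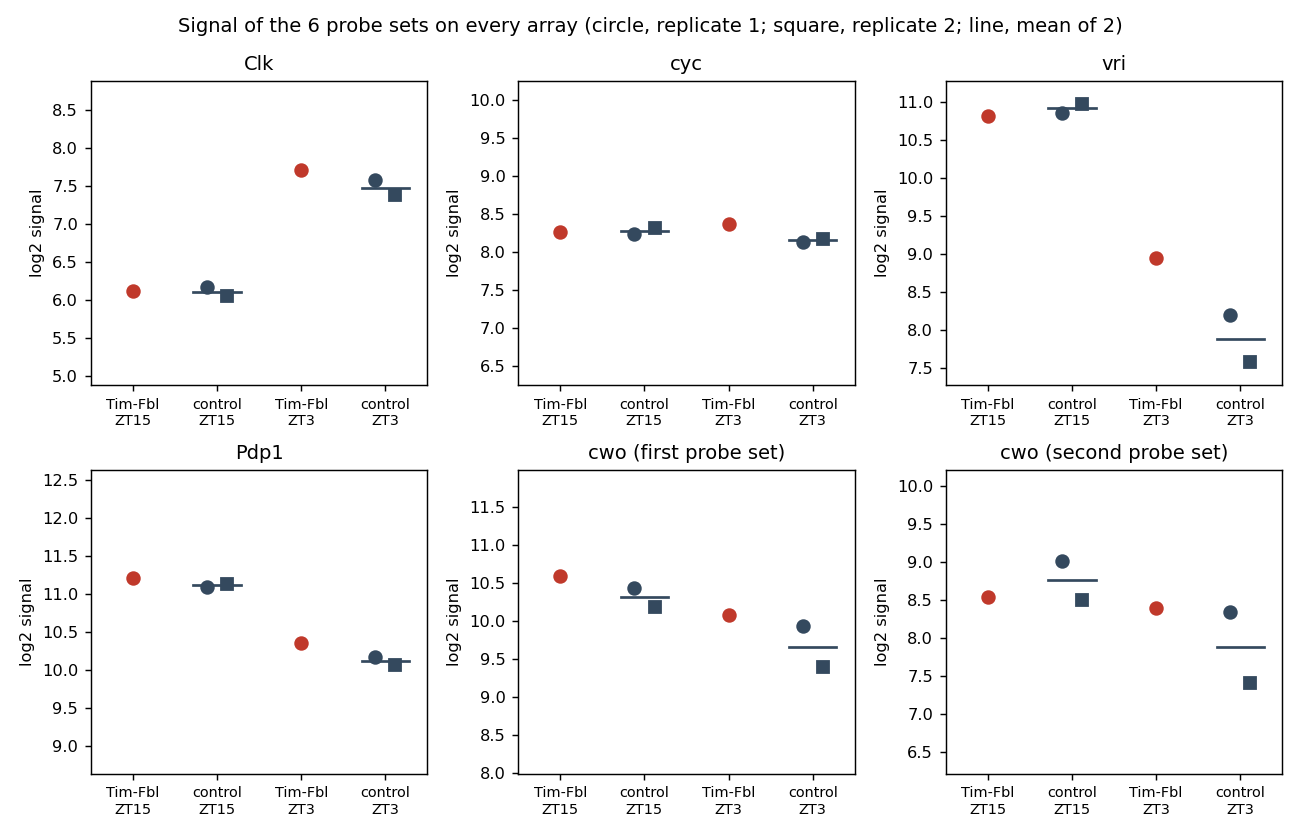
Log2 signal (vertical axes, each 4 log2 units tall) of the 6 probe sets on every array, with Tim-Fbl in red and control in dark blue, and ZT15 left of ZT3; circles are replicate 1, squares replicate 2 and lines the mean of 2 control arrays. Clk is low and vri and Pdp1 are high at ZT15 in both strains, and cyc stays within 8.13 to 8.36. On the Tim-Fbl ZT3 array all 6 probe sets lie above both control ZT3 arrays, as do 37.7% of all probe sets.

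The spread between the 2 control ZT3 arrays was uneven over the loop. For vri, replicate 1 exceeded replicate 2 by 0.61 log2 units, a gap reached in size by 1.16% of all probe sets. For cwo the gaps were 0.54 and 0.92, reached by 1.69% and 0.357% of all probe sets. For Clk and Pdp1 they were 0.20 and 0.10, and for cyc replicate 1 was lower by 0.04, against a median gap of 0.12 over all probe sets. The control ZT3 level of vri and cwo thus rested on 2 arrays that lay further apart than most transcripts did, while those of cyc and Pdp1 lay closer than the median. At ZT15 the gap of vri was 0.11 in size and those of cwo were 0.26 and 0.51, against a median of 0.09.

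**Figure D2:**
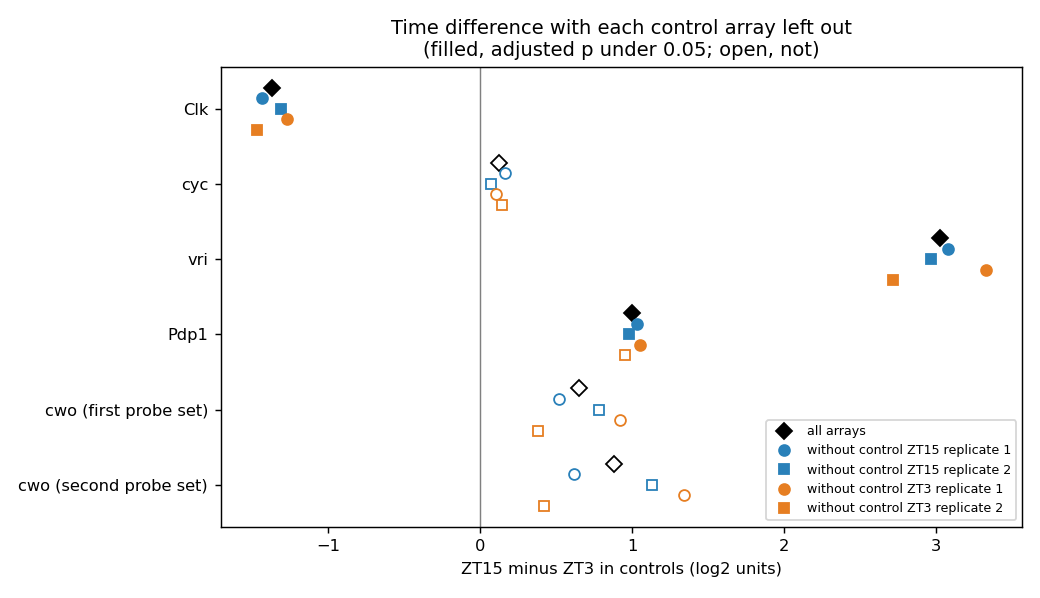
ZT15 minus ZT3 in control heads (horizontal axis, log2 units) for each probe set with all arrays and with each control array left out; filled symbols passed at an adjusted p under 0.05 and open ones did not. Clk and vri passed in every fit shown, Pdp1 lost its call at 0.95 without control ZT3 replicate 2, and the cwo values spread from 0.38 to 0.92 on the first probe set and from 0.42 to 1.34 on the second.

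The second question was whether the same day-night pattern was seen in Tim-Fbl heads, where 1 array was made at each time and the differences are descriptions that were not tested. Clk had 6.11 log2 units at ZT15, against 7.71 at ZT3, which was 3.02-fold lower (log2 difference -1.60). The gene vri had 10.81 at ZT15, against 8.94 at ZT3, a difference of 1.86 or 3.64-fold. For Pdp1 the values were 11.20 at ZT15 and 10.35 at ZT3, a difference of 0.84 or 1.79-fold. These 3 genes thus differed in the direction seen in controls. Differences as large in size were found in 0.17% of all probe sets for Clk, 0.112% for vri and 0.757% for Pdp1. The cwo probe sets had 10.59 and 8.55 at ZT15, against 10.08 and 8.40 at ZT3, differences of 0.52 and 0.15. The gene cyc had 8.26 at ZT15, against 8.36 at ZT3, a difference of -0.10, which was exceeded or equalled in size by 53.1% of all probe sets.

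Set beside the controls, the Tim-Fbl time difference was larger in size for Clk (-1.60 in Tim-Fbl and -1.37 in control). It was smaller for vri (1.86 in Tim-Fbl and 3.03 in control), for Pdp1 (0.84 in Tim-Fbl and 1.00 in control) and for both cwo probe sets. Of the 132 probe sets that passed for time in controls, 119, or 90.2%, had a smaller difference in Tim-Fbl. Those 132 were chosen by the test of the control difference, and such a choice favours a smaller value in the other strain. Clk was not among the 119.

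**Figure D3:**
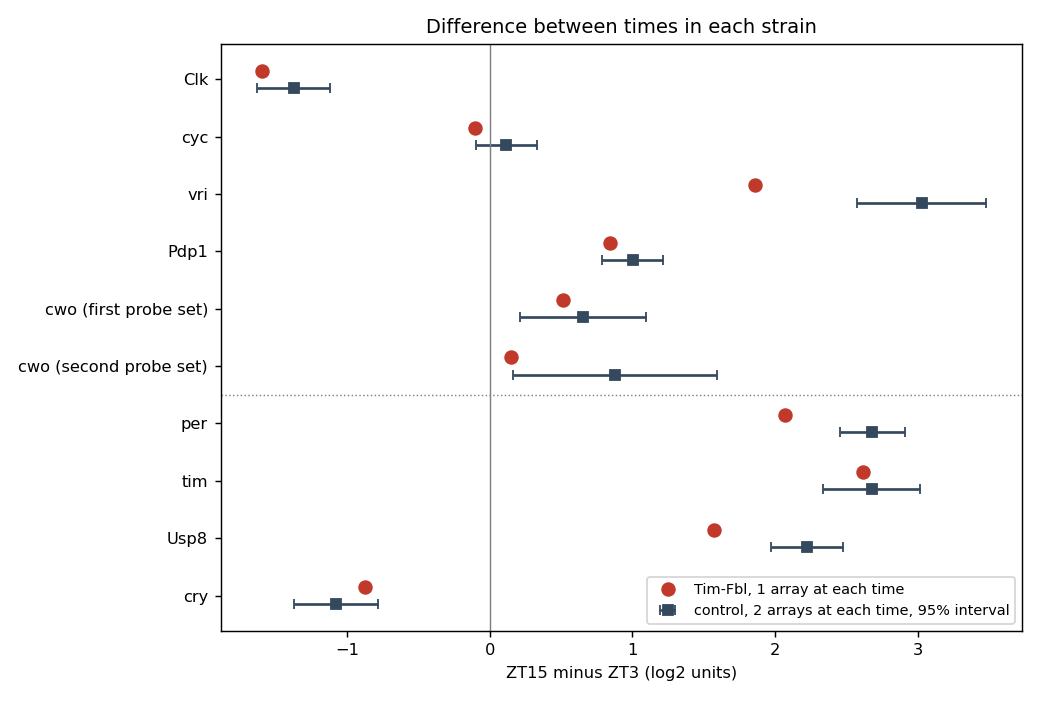
ZT15 minus ZT3 (horizontal axis, log2 units) in Tim-Fbl (red circles, 1 array at each time, no error) and in control (squares, 2 arrays at each time, with the 95% interval from limma) for the 6 probe sets above the dotted line and 4 other clock genes below it. The Tim-Fbl points of vri (1.86), per (2.07) and Usp8 (1.57) lie clearly below the control intervals. Those of cyc (-0.10) and the second cwo probe set (0.15) lie just below theirs, and the others lie inside them. The intervals hold no error for the single Tim-Fbl arrays, so a point outside its interval is no test of a strain difference.

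The strains were then compared over both times. None of the 6 probe sets passed the limma test for strain, also none at an unadjusted p under 0.05, while 8.79% of all probe sets passed and 29.1% had an unadjusted p under 0.05. The log2 differences were 0.13 ± 0.0967 (SE) for Clk, 0.10 ± 0.0828 for cyc and 0.16 ± 0.0792 for Pdp1. Their 95% intervals were -0.10 to 0.35, -0.09 to 0.30 and -0.02 to 0.35. The upper ends correspond to 1.28-fold, 1.23-fold and 1.27-fold. For vri the difference was 0.47 ± 0.264 (95% interval -0.14 to 1.09, limma adjusted p = 0.272). For cwo it was 0.35 ± 0.154 on the first probe set (limma adjusted p = 0.184) and 0.15 ± 0.281 on the second (limma adjusted p = 0.75). The intervals of vri and cwo were wider, with upper ends at 2.13-fold, 1.63-fold and 1.75-fold. All 6 differences, 2 of them from cwo, were above 0, as were 15 of the 16 other clock genes described below. The share of all probe sets above 0 was not counted. The medians were 0.16 over the 6, 0.17 over those 16 and -0.03 over all probe sets. However, the differences of vri, cyc and the second cwo probe set changed sign without the Tim-Fbl ZT3 array (-0.11, -0.01 and -0.21). That of Clk was 0.01 without this array, 0.01 after quantile normalization and 0.05 after cyclic loess. That of cyc was 0.00 after quantile normalization and -0.01 after cyclic loess.

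At the single times, each Tim-Fbl array was set beside the 2 control arrays. On the Tim-Fbl ZT3 array all 6 probe sets lay above both control ZT3 arrays, by 0.21 to 1.05 log2 units over the control mean, as did 37.7% of all probe sets. At ZT15, 2 lay above both control arrays (Pdp1 and the first cwo probe set), 1 below both (vri) and 3 between them, with differences of -0.21 to 0.28; 34.3% of all probe sets lay above both. For vri the Tim-Fbl ZT3 array had 8.94, against 8.19 and 7.58 in controls, or 2.08-fold over their mean. A difference of that size at ZT3 was found in 1.34% of all probe sets. For the other 5 probe sets 7.32% to 41.5% of all probe sets differed as much at ZT3. These differences at single times were not tested on their own. The same Tim-Fbl ZT3 array had the largest excess of signal at the transcript's 3′ end over its 5′ end on all 3 control transcripts. The excess was 5.10 log2 units for actin, 2.40 for GAPDH and 4.62 for eIF4a, against 4.56 to 4.73, 2.14 to 2.30 and 4.18 to 4.42 on the other arrays. Its part in the higher ZT3 values was not tested.

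The test of whether the time difference itself differed between strains gave adjusted p-values of 0.842 or more for all 6 probe sets, in limma. Over all probe sets 0.0373% passed. At an unadjusted p under 0.05 there was 1 of the 6, vri, against 5.4% of all probe sets. The difference of the time differences for vri was -1.16 ± 0.328 (SE, 95% interval -1.94 to -0.38, limma adjusted p = 0.842). It was -0.86 without control ZT3 replicate 2, and -1.47 without control ZT3 replicate 1. For Clk it was -0.22 (95% interval -0.67 to 0.22), for cyc -0.22 (-0.59 to 0.15) and for Pdp1 -0.16 (-0.53 to 0.22). For cwo it was -0.14 (-0.90 to 0.62) and -0.73 (-1.96 to 0.51). All 6 intervals reached -0.53 or lower, so equal time differences in the 2 strains were not shown either. With ZT15 and ZT3 alone, the amplitude and the phase of a rhythm cannot be told apart.

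**Figure D4:**
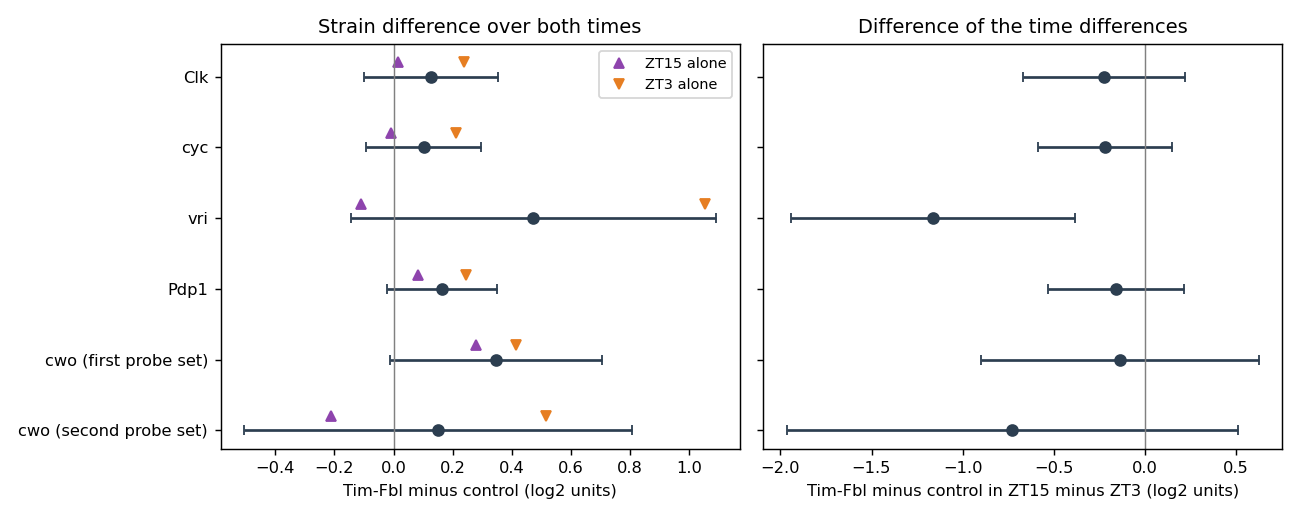
Left, Tim-Fbl minus control over both times (circles with 95% intervals from limma, log2 units), with the difference at ZT15 alone and at ZT3 alone as triangles; right, the difference between strains of ZT15 minus ZT3 with its 95% interval. On the left every interval includes 0. On the right the interval of vri alone, -1.94 to -0.38, lies off 0.

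Other clock genes were taken as a list of 22, of which 16 were measured by a probe set with 1 symbol. Between the times in controls 3 rose, 1 fell and 12 did not pass, beside the 0.703% of all probe sets that passed. The median log2 difference was 0.15, and -0.01 over all probe sets. The risen genes were per and tim, whose proteins block CLK and CYC, at 2.68 ± 0.0946 and 2.68 ± 0.142 (SE), and Usp8, a deubiquitinase known to act on CLK, at 2.23 ± 0.106. The fallen gene was cry, which encodes the blue-light photoreceptor, at -1.07 ± 0.124. The kinase gene dco, also called dbt, and slmb, a ubiquitin ligase subunit gene for PER, differed by 0.23 and 0.15 without passing. For strain 3 rose and 13 did not pass, where 8.79% of all probe sets passed, at a median of 0.17, and -0.03 over all probe sets. These were nej, the CBP coactivator of CLK (0.55 ± 0.0817, limma adjusted p = 0.0104), kay, a Fos-family factor (0.52 ± 0.0787, limma adjusted p = 0.0111), and tyf, which promotes PER translation (0.40 ± 0.0857, limma adjusted p = 0.0332). None of the 16 passed for the difference of the time differences in limma, and 2 had an unadjusted p under 0.05, beside 5.4% of all probe sets: per (-0.61 ± 0.164) and Usp8 (-0.66 ± 0.184). Like vri, both had a Tim-Fbl ZT3 value above both control ZT3 arrays. The values were 6.32 against 6.04 and 5.90 for per, and 8.32 against 7.86 and 7.79 for Usp8. The same held for 37.7% of all probe sets and for other listed genes such as dco, nej and kay. By contrast, tim lay between the control ZT3 arrays and cry below both. Since per and Usp8 were picked by the difference of the time differences on these same arrays, their values are a description. At ZT15 their Tim-Fbl values lay below both control arrays, at 8.39 against 8.68 and 8.63 for per and at 9.88 against 10.16 and 9.94 for Usp8. For tim the value was -0.06 ± 0.245.

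Relatives of the 5 factors were counted by family. No member of the 3 families passed for time in controls in limma, where 0.703% of all probe sets passed. The counts were 0 of 7 bHLH-PAS genes, 0 of 4 bZIP genes and 0 of 9 bHLH-Orange genes. At an unadjusted p under 0.05 there were 2, 1 and 2, where 17.3% of all probe sets were. The median log2 differences were 0.21, -0.02 and 0.01. The lists held 9, 5 and 12 genes, and the others had no matched probe set with 1 symbol. Several measured relatives lay near the floor, such as dpn (mean 3.59), E(spl)mdelta-HLH (3.52) and dysf (4.17), where a time difference could be missed. For strain, where 8.79% of all probe sets passed, 2 of 7 bHLH-PAS genes rose: tai, a coactivator of the ecdysone receptor (0.64 ± 0.116 SE, limma adjusted p = 0.0202), and ss, the dioxin receptor homolog (0.54 ± 0.124, limma adjusted p = 0.0413), whose mean of 4.29 lay near the floor. Of the 9 bHLH-Orange relatives of cwo, 2 rose, and both are repressor genes switched on by Notch. E(spl)m3-HLH had 7.65 and 7.83 on the Tim-Fbl ZT15 and ZT3 arrays, against 5.84 to 6.58 on the control arrays (1.46 ± 0.168, limma adjusted p = 0.00389). E(spl)mbeta-HLH had 8.96 and 9.03 on the Tim-Fbl arrays, against 7.43 to 7.85 on the control arrays (1.29 ± 0.116, limma adjusted p = 0.00139). None of the 4 bZIP relatives passed for strain in limma, nor had any an unadjusted p under 0.05. Act88F moved with strain beside these genes, as given above, and its part in their rises was not tested.

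Genes with the most similar pattern were sought for the 4 genes whose first or single probe set spanned at least 1 log2 unit over the 6 arrays. Likeness was the root-mean-square difference between profiles centred on their own mean over 6 arrays, among 7075 genes with a mean log2 of at least 6. Closest to Clk were Hr38, a nuclear receptor gene (0.26 log2 units), cry (0.27) and FarO, a fatty acyl-CoA reductase gene (0.28). Hr38 had 6.15 and 7.45 on the Tim-Fbl ZT15 and ZT3 arrays, against 5.45 and 5.38 in controls at ZT15 and 6.98 and 6.88 in controls at ZT3. Closest to vri were per (0.29), tim (0.33) and Usp8 (0.41). Closest to Pdp1 were pkm (0.10), dnr1 (0.10) and retn, an ARID-domain factor gene (0.12), whose control time differences were 0.97, 1.10 and 0.96. Closest to cwo were CG5877 (0.08), CG14883 (0.11) and ana (0.11), whose control time differences were 0.57, 0.48 and 0.62. On control ZT3 replicate 2 these 3 had 5.70, 7.50 and 8.17, against 6.04, 7.95 and 8.49 on replicate 1. All these genes were chosen for their likeness on the same arrays, so their values are a description.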

How the data were processed

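The deposited values are log2 signals per probe set, 1 array a sample; the scale was read from their range, and the submitters' processing notes name RMA without a version. Since RMA brings the arrays' distributions close to each other, a shift common to all transcripts would go unseen. The distributions were not equal, with lower quartiles of 3.98 and 4.01 on the Tim-Fbl ZT15 and ZT3 arrays, against 4.05 to 4.15 in controls. Groups came from the sample titles. The labels do not say whether replicates were separate cultures, so p-values reflect spread between arrays that may be technical in origin. Of all 18952 probe sets, 183 manufacturer's controls were left out. Of the 18769 tested, 13647 had 1 symbol, 402 several and 4720 none; RefSeq (Release 6 plus ISO1 MT) matched 13544 by gene identifier and changed 0 symbols. No probe set with several symbols held a member. The probe sets of Clk, vri and Pdp1 carry the suffix for shared sequence and can also measure other transcripts. No coordinates or sequences are given.

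Tests were run in R 4.3.3 with limma 3.58.1. Adjusted p-values are Benjamini-Hochberg values over all 18769 probe sets, called under 0.05. The exceptions are fits with a filter or with 1 test per gene, where they cover what was tested. The time effect and the difference of time differences came from a fit of 4 group means (2 residual degrees of freedom), and the strain effect from strain plus time (3 residual degrees of freedom). Intervals are at 95%. Each listed gene was read from its brightest probe set. The functions were tested on simulated arrays. Of added 2-fold changes they found 92.8% for time, 96.6% for strain and 11.1% for the difference of time differences. Of added 1.5-fold changes they found 31.9%, 69.1% and 0.597%. The members, the lists and the rule for named genes were chosen with earlier results of these data known. That rule took the members, fbl, per, tim, cry, other listed genes that passed, and the 3 most alike genes. Outside it, dco, slmb, dpn, E(spl)mdelta-HLH and dysf were named as listed genes that did not pass. Alternatives covered filters on dim probe sets, scalings, variance models, 1 test per gene, other designs, a replicate block and single arrays left out. Figures were drawn with matplotlib 3.10.9. The number of arrays limits the precision.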

Additional observations from a re-analysis of the deposited data

Results flagged for a closer look

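The Tim-Fbl arrays of cyc differed by -0.10 log2 units between ZT15 and ZT3, while both control ZT15 arrays lay above both control ZT3 arrays, so that the differences of the strains had opposite signs. The control difference did not pass (0.12 ± 0.089 SE, limma adjusted p = 0.52), and the Tim-Fbl difference was equalled or exceeded in size by 53.1% of all probe sets. Values were 8.26 at ZT15 and 8.36 at ZT3 in Tim-Fbl, and 8.23 and 8.31 at ZT15 and 8.13 and 8.17 at ZT3 in control. The test of the difference itself did not pass (-0.22 ± 0.155 SE, limma adjusted p = 0.842).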

How the results depend on the processing

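The control time differences of Clk (-1.47 to -1.27) and vri (2.64 to 3.33) kept their direction and call in every alternative that held them. Pdp1 (0.94 to 1.05) lost its call only without control ZT3 replicate 2. With a minimum mean log2 of 7, Clk (mean 6.83) was not tested, so 0 of the tested probe sets fell. With a control array left out, 1 to 2 of the 6 probe sets rose. The replicate numbers are not labelled as shared days or cultures, and same-numbered control arrays deviated from their group means at r = 0.038 over 18769 probe sets; with the replicate number as a block 4 rose in place of 2, with both cwo probe sets passing (adjusted p = 0.0297 and 0.0131). Over all probe sets, the time count of 132 became 83 and 75 with means under 5 and 7 left out, 214 with robust variances, 334 with the replicate block, and 27 to 340 with a control array left out. The strain count of 1650 became 395 to 1255 with an array left out. The interaction count of 7 became 0 with either filter, after quantile normalization and after cyclic loess, 23 with the replicate block and 0 to 57 with a control array left out. No member passed for strain or interaction in any alternative. Strain differences with an array left out ran from -0.11 to 1.05 for vri, -0.01 to 0.21 for cyc and -0.21 to 0.51 for the second cwo probe set; cyc gave 0.00 after quantile normalization and -0.01 after cyclic loess. The interaction of the first cwo probe set ran from -0.41 to 0.13. The cause of these changes was not tested. Signals near the arrays' lower quartile are compressed, which limits no member here, since the lowest member value was 6.04.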

Other observations

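In the RefSeq gene order Clk and Pdp1 lie on the same chromosome arm with 2 other protein-coding genes between them, CG32371 and CG32369. These and the genes next to them were looked up after the members' values were seen. CG32371, which overlaps Clk in that annotation, had a mean of 3.41 log2 units, near the floor, and a control time difference of -0.03. CG32369 differed by -0.68 between the times in controls without passing (limma adjusted p = 0.163), the direction of Clk and not of Pdp1. CG7409, 2 places from Clk on the other side, fell at ZT15 (-0.76, limma adjusted p = 0.0451), and Cyp305a1, a cytochrome P450 gene next to cyc, fell as well (-0.87, limma adjusted p = 0.0275). Of the genes within 2 places of vri and cwo none passed for time. Near cyc, Kap-alpha1, Fibp and Deaf1 did not pass either, nor did CG32365 and eIF4E5 near Pdp1. Hn, next to Clk, had no probe set with 1 symbol. For strain, jumu, a forkhead factor gene 2 places from cwo, was higher in Tim-Fbl (0.74, limma adjusted p = 0.00555). So was Nin, 2 places from vri (0.49, limma adjusted p = 0.0295), and no other gene looked up passed. Of all probe sets tested, 0.703% passed for time and 8.79% for strain.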
